A study of Mus musculus with 4 samples.

Results

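The gene models described here are 8 rows listed as multicopy gene models of the 2-cell (2C) stage outside the Zscan4 and Usp17l families: Gm2016, Gm5662, Gm8300, Gm2022 and BB287469, which resemble Eif1a, and Gm4340, Gm21761 and Gm4971. They were taken by name from a table of read counts with 49997 gene rows, and all 8 were found. The names were chosen by their values in this same comparison of shYthdf2 with shScramble, so their differences between groups are given below as a description, with no p-value. Counts of members called are printed only beside those of all genes. The cells were E14 mouse embryonic stem cells (ESCs), grown with serum replacement and LIF, and per the study's methods the ESCs carried a tdTomato reporter driven by the promoter of MERVL, an endogenous retrovirus active in 2-cell embryos. The groups were stable lines under puromycin that expressed a lentiviral short hairpin RNA, either a scrambled sequence (shScramble, n = 2 libraries) or a sequence against Ythdf2, a cytoplasmic reader of m6A-marked RNA (shYthdf2, n = 2 libraries). The study describes a pair of hairpins against Ythdf2, and the labels do not say which of them these libraries carried.

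2C-like cells arise rarely among ESCs and transcribe genes of the 2-cell embryo, many of them under the transcription factor DUX. Eif1a and its X-linked relative Eif1ax encode eIF1A, which binds the small ribosomal subunit and helps it to scan for the start codon. The mouse genome also holds a block of Eif1a-like copies, a family long used as a marker of the 2-cell stage. YTHDF2 recruits deadenylases to m6A-marked mRNA and so shortens its life.

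Each library held between 31113006 and 36422510 counted reads. Ythdf2 itself was at 93.4 and 87.5 CPM (reads scaled to a common depth) in shScramble and fell to 31.7 and 30.2 CPM in shYthdf2, with a log2 fold change (log2 FC) of -1.55 (SE 0.11, edgeR adjusted p = 0.00069). The scaling to CPM used TMM factors. All 8 fixed ESC markers were read in every library at a mean of 178 to 1087 CPM per gene, with sums of 5354 to 5596 CPM in shScramble and 5115 to 5401 CPM in shYthdf2. The summed level of 5 fibroblast markers was 17.2 to 17.9 CPM in shScramble and 9.53 to 15.6 CPM in shYthdf2, that of 5 primitive endoderm markers 9.93 to 10.5 and 9.60 to 15.1 CPM, and that of 4 trophoblast markers 4.34 to 4.36 and 2.60 to 2.78 CPM. Of the ESC markers Tdh, a threonine dehydrogenase, was called higher (log2 FC 0.55, SE 0.11, edgeR adjusted p = 0.032). None of these markers was at 0 in all libraries, and their part in the results below was not tested.

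The 5 Eif1a-like members lie on chromosome 12 (mm10): Gm8300 from 87514316 to 87518265, BB287469 from 87816577 to 87820676, Gm2016 from 87874072 to 87877859 and Gm2022 from 87892834 to 87896722, all on the plus strand, and Gm5662 from 88270635 to 88274497 on the minus strand. Each row has 2 exons and a coding sequence of 435 bases, which encodes 144 residues. Their coding sequences were compared to show how few bases tell one copy from another. Any pair of the 5 was between 97.2% and 99.1% identical, and 16 of the 435 positions varied among them. The stretch of 120 coding bases from base 262 to base 381 held 8 of these positions. It is shown for the 5 members and for Eif1ax, with capitals where a base differs from Gm2016, as read from GENCODE M21 transcripts on GRCm38. The stretch lies at chr12:87876846-87876965 (+) in Gm2016, chr12:88271608-88271727 (-) in Gm5662, chr12:87517158-87517277 (+) in Gm8300, chr12:87895631-87895750 (+) in Gm2022 and chr12:87819582-87819701 (+) in BB287469. In Eif1ax it is joined across an intron, between chrX positions 159379736 and 159382731 (+).
Gm2016: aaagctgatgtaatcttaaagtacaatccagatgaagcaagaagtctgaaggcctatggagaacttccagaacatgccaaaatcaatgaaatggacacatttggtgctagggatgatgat
Gm5662: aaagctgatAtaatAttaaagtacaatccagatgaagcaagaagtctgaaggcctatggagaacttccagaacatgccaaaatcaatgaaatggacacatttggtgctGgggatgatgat
Gm8300: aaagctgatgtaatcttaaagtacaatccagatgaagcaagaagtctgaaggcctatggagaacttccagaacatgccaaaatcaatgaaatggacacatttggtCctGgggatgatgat
Gm2022: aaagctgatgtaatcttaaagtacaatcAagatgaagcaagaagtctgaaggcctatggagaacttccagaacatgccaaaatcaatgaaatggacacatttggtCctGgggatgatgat
BB287469: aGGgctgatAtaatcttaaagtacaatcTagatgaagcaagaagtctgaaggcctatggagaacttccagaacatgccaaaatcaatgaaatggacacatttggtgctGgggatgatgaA
Eif1ax: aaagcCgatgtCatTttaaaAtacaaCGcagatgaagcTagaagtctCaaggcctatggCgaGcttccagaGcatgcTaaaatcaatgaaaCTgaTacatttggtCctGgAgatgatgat

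Over the whole coding sequence Gm5662 differed from Gm2016 by 4 bases, Gm2022 by 5, Gm8300 by 8 and BB287469 by 10, and the encoded proteins differed by 2, 4, 4 and 6 residues. Eif1a differed from Gm2016 by 24 bases and 9 residues, and Eif1ax by 65 bases and 11 residues. The copies were therefore closer to Eif1a than to Eif1ax in their bases, while both eIF1A genes lay within 11 residues of Gm2016.

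The other 3 members belong to other families. Gm4340 lies on the plus strand of chromosome 10 (104194042 to 104196522), and its protein was 53.7% identical to Alyref and 55.8% to Alyref2, where ALYREF is an adaptor for the export of mRNA from the nucleus. Next to it are 6 near-identical copies, Gm20765, Gm21312, Gm21304, Gm8764, Gm6763 and Gm21293. Its coding sequence of 807 bases had 0 mismatches to the 795 bases of Gm20765 and 12 extra bases inside a repeat of CAG and AGC triplets. The placement of those 12 bases within the repeat is arbitrary. They are shown because no other coding base separates the pair, at chr10:104196043-104196126 (+, coding bases 647 to 730) in Gm4340 and chr10:104187533-104187604 (+, coding bases 647 to 718) in Gm20765, with the extra bases in capitals.
Gm4340: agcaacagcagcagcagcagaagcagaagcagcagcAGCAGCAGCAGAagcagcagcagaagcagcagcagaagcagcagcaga
Gm20765: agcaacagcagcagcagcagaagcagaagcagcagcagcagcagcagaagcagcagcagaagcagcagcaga

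Gm21761 lies on the minus strand of chromosome 13 (119912035 to 119913468) and belongs to the family of Tcstv1 and Tcstv3, genes named for their variable expression at the 2-cell stage, with which its protein shared 91.2% and 91.7% of residues. Its nearest coding copies were AF067061, at 96.5% protein identity, and Gm20767. The coding sequence of 516 bases had 9 mismatches to the 510 bases of Gm20767 and 6 extra bases. The stretch around them is shown with the extra bases in capitals, at chr13:119912377-119912454 (-, coding bases 299 to 376) in Gm21761 and chr13:120154925-120154996 (+, coding bases 299 to 370) in Gm20767.
Gm21761: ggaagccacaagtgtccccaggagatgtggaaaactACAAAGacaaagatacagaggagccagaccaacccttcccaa
Gm20767: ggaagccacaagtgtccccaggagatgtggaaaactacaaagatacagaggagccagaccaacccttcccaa

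Gm4971 lies in 1 exon on the minus strand of chromosome 7 (73685492 to 73686563), and RefSeq lists it as a transcribed pseudogene. Its transcript matched that of Gm4930, a processed pseudogene, at 96.9% identity. No row of the annotation overlapped any of the 8 members, so the missing strand option left no annotated overlap to resolve in their counts.

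Reads with several placements were left out of the table, so the share of each transcript that also occurs elsewhere bears on every level given below. Windows of 150 bases, the length of a read, were cut from each member's annotated transcripts and searched in the transcripts of all other genes. Gm4340 shared 90.1% of its windows, all with the 6 copies beside it, and BB287469 shared 88.1%, all with Gm4027. Gm2016 shared 43.7% and Gm5662 40.3%, mostly with each other. The remaining members shared less, with 28.4% in Gm21761, 19.9% in Gm2022, 12.2% in Gm4971 and 2.96% in Gm8300. The annotated transcript of Gm2022 covered its 435 coding bases only, so its value covers that part. Unannotated copies in the genome were not searched.

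**Figure D1:**
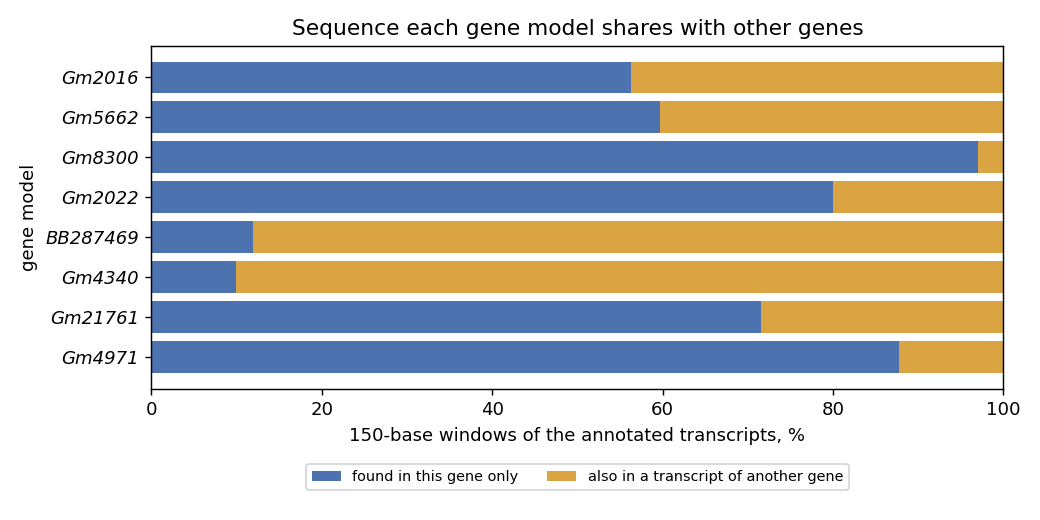
Share of the 150-base windows of each member's annotated transcripts (x axis, percent) that occur in this gene only (blue) or also in a transcript of another gene (yellow). Gm4340 and BB287469 shared 90.1% and 88.1% of their windows, and Gm8300 shared 2.96%.

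The Eif1a-like members differed between the groups as follows. Gm2016 was at 8.41 and 11.3 CPM in the shScramble libraries and at 14.1 and 29.2 CPM in the shYthdf2 libraries (9.86 ± 2.06 against 21.6 ± 10.6 CPM, SD, n = 2), a log2 FC of 1.14 (SE 0.31). Gm5662 was at 10.1 and 13.3 CPM in shScramble and at 16.3 and 34.7 CPM in shYthdf2 (11.7 ± 2.23 against 25.5 ± 12.99, SD, n = 2), a log2 FC of 1.13 (SE 0.31). In both genes the shYthdf2 libraries lay above the shScramble libraries, and shYthdf2 replicate 2 stood well above the other libraries. As these share 37.7% of the windows of Gm2016, a read of one can be set aside for its match to the other.

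Gm8300, the copy with the fewest shared windows, was at 9.65 and 10.2 CPM in shScramble and at 11.7 and 27.7 CPM in shYthdf2 (9.93 ± 0.39 against 19.7 ± 11.3, SD, n = 2), a log2 FC of 0.99 (SE 0.33). Gm2022 was at 4.38 and 5.74 CPM in shScramble and at 7.69 and 15.3 CPM in shYthdf2 (5.06 ± 0.96 against 11.5 ± 5.36, SD, n = 2), a log2 FC of 1.18 (SE 0.32). The groups did not overlap in either gene, and shYthdf2 replicate 1 of Gm8300 lay close to the controls. BB287469 had only 11 and 22 reads in shScramble and 20 and 31 reads in shYthdf2, or 0.31, 0.70, 0.58 and 0.87 CPM, and its log2 fold change was 0.54 (SE 0.61). Its groups overlapped, since shScramble replicate 2 lay above shYthdf2 replicate 1, and no difference was detectable at this depth.

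Among the other families, Gm4340, the ALYREF-like gene, had the widest range of the members. It was at 5.33 and 12.5 CPM in shScramble and at 21.7 and 72.0 CPM in shYthdf2 (8.90 ± 5.05 against 46.8 ± 35.6, SD, n = 2), a log2 FC of 2.40 (SE 0.51). The controls differed by 2.34-fold and the shYthdf2 libraries by 3.33-fold, and the groups did not overlap. The 6 copies beside it held 10 reads in all over the 4 libraries, while Gm4340 held 192 to 2580 reads per library. Among these copies Gm20765, Gm21312, Gm8764 and Gm6763 have the same coding sequence, and reads with several placements were left out. The low counts of the copies therefore do not show that they were silent.

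Gm21761, the Tcstv-like gene, was at 14.1 and 16.0 CPM in shScramble and at 26.9 and 62.0 CPM in shYthdf2 (15.1 ± 1.38 against 44.4 ± 24.8, SD, n = 2), a log2 FC of 1.56 (SE 0.31). Gm4971, the transcribed pseudogene, was at 5.69 and 6.85 CPM in shScramble and at 8.62 and 19.7 CPM in shYthdf2 (6.27 ± 0.82 against 14.2 ± 7.84, SD, n = 2), a log2 FC of 1.18 (SE 0.34). In both the controls lay close together, and the shYthdf2 libraries lay apart from them and from each other. In bulk RNA, more cells that express such a gene and more of its RNA per cell cannot be told apart.

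**Figure D2:**
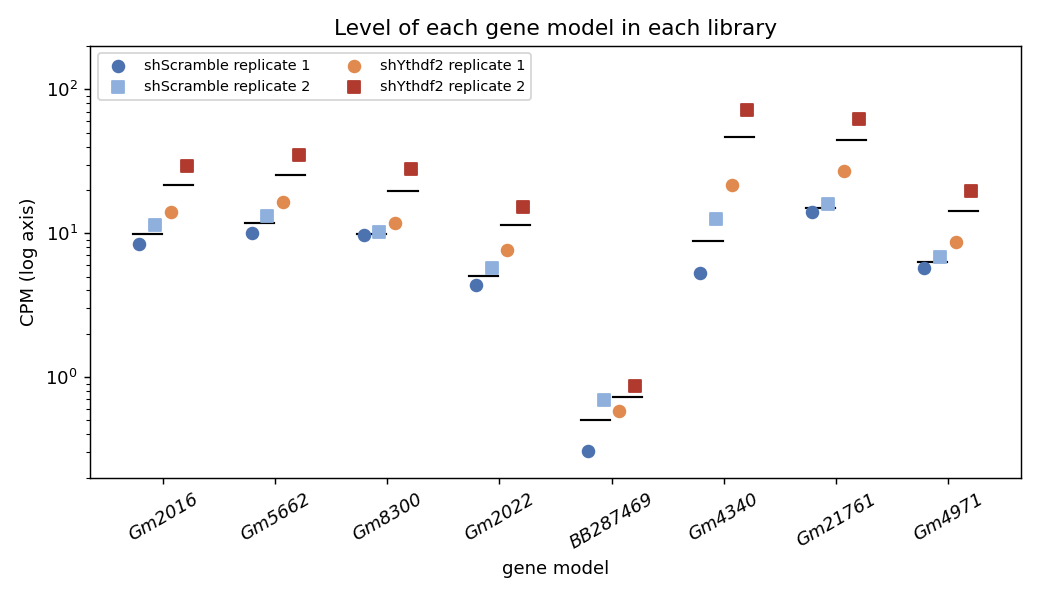
Level of each member (CPM, log axis) in the 2 shScramble libraries (blue) and the 2 shYthdf2 libraries (orange and red), with circles for replicate 1, squares for replicate 2 and a black bar for the group mean. In all 8 members shYthdf2 replicate 2 is the highest point, and in BB287469 the groups overlap.

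All 8 members passed the filter on low counts. In 7 of 8 both shYthdf2 libraries lay above both shScramble libraries, where 26.2% of the 18341 genes tested did so. At an edgeR adjusted p under 0.05 the call was passed by 2 of the 8, Gm4340 and Gm21761, where 2.43% of all genes were called higher. DESeq2 at the same threshold called neither of these and called Gm2016, Gm2022 and Gm4971, so which members were called depended on the tool. Over its 30565 genes with a read, DESeq2 called 808 higher. The members were proposed from this contrast, so nothing is read from these counts. The median log2 fold change of the 8 was 1.16, and that of all genes tested was 0.0019.

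The size of these differences rested largely on shYthdf2 replicate 2. That library was the highest of the 4 for 8 of 8 members, and for 21.8% of all genes tested. The median ratio of shYthdf2 replicate 2 to replicate 1 was 2.205 over the members and 0.997 over all genes. The members' median was 0.50 when shYthdf2 replicate 2 was left out, and 1.58 when shYthdf2 replicate 1 was. Without shYthdf2 replicate 2 the log2 FC of Gm8300 was 0.24, that of Gm4340 1.29 and that of Gm21761 0.84. BB287469 turned on the controls, with 0.06 without shScramble replicate 1 and 1.24 without shScramble replicate 2. Leaving out a control moved the median less, to 0.98 without shScramble replicate 1 and 1.35 without replicate 2. The controls differed in the same sense, with a median ratio of replicate 2 to replicate 1 of 1.31 over the members and 0.999 over all genes.

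The libraries carry replicate numbers, and the difference was therefore also read within each number. Among libraries numbered 1 the ratio of shYthdf2 to shScramble was between 1.22 in Gm8300 and 4.07 in Gm4340. Among those numbered 2 it was between 1.24 in BB287469 and 5.78 in Gm4340. Every member was thus higher in shYthdf2 within both numbers, by 1.62-fold and 2.62-fold in Gm5662 for example. The labels do not say that the numbers pair the libraries, and the members were chosen by this same comparison, so this is a description only. In BB287469 the ratios rest on 20 against 11 and 31 against 22 reads, and its groups overlapped.

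Per kilobase of exon, a scale that corrects for length but not for the reads left out, Gm21761 stood highest in shScramble at 17.03 ± 1.56 CPM per kb (SD, n = 2). Gm4340 at 7.07 ± 4.01, Gm5662 at 6.34 ± 1.21, Gm4971 at 5.85 ± 0.77, Gm2016 at 5.59 ± 1.17 and Gm8300 at 5.31 ± 0.21 CPM per kb followed, and neighbours in this order lay within their spread. Gm2022 was lower at 2.78 ± 0.53 and BB287469 lowest at 0.27 ± 0.15 CPM per kb. In shYthdf2 Gm21761 reached 50.2 ± 28.0 and Gm4340 37.2 ± 28.3 CPM per kb, and their spread covered each other. Eif1a was far above its copies at 83.3 ± 4.94 CPM per kb in shScramble and 94.1 ± 0.91 in shYthdf2, and Eif1ax was at 32.2 ± 0.10 and 31.7 ± 0.46 CPM per kb. These levels hold only the reads that could be placed, divided by the full exon length. The share of windows found in no other gene was 9.88% in Gm4340, 11.9% in BB287469, 56.3% in Gm2016 and 97.0% in Gm8300. Levels of members with unlike shares are therefore not strictly comparable. The positions of the counted reads were not examined.

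The family of the 5 Eif1a-like members on chromosome 12 has 11 more rows, found by protein identity and not by their level: Gm16368, Gm2035, Gm2056, Gm2075, Gm21319, Gm21936, Gm4027, Gm5039, Gm5788, Gm6803 and Gm8332. Gm8332, whose protein was 100% identical to that of Gm8300, was the most abundant row of the block, at 11.99 and 15.5 CPM in shScramble and 21.1 and 47.5 CPM in shYthdf2. It rose, with a log2 FC of 1.32 (SE 0.31, edgeR adjusted p = 0.049). Gm5039, a row with 1 exon, was at 3.50 and 4.85 CPM in shScramble and 7.34 and 16.7 CPM in shYthdf2, and rose as well, with a log2 FC of 1.53 (SE 0.36, edgeR adjusted p = 0.049). Both calls sat at the threshold: over 12 other settings the edgeR, DESeq2 or limma adjusted p of Gm8332 ranged from 1.0e-13 to 0.14 and that of Gm5039 from 3.2e-08 to 0.10. Gm8332 was called in 6 of those 12 settings and Gm5039 in 7. Neither was called with RLE factors, library totals, a mean of at least 1 CPM, limma-voom or without shYthdf2 replicate 2, and Gm8332 was not called by DESeq2 either.

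The other 9 rows did not pass, among them Gm2056 at a log2 FC of 1.93 (SE 0.55, edgeR adjusted p = 0.084) and Gm2035 at 0.58 (SE 0.31, edgeR adjusted p = 0.34). All 11 passed the filter on low counts, all 11 had a positive log2 fold change, and their median was 1.32. Without adjustment, 5 were higher and 0 lower at a p under 0.05, where 11.0% of all genes tested were higher and 9.80% lower. Summed over the 16 Eif1a-like rows, the level was 62.4 and 76.4 CPM in shScramble and 95.6 and 212 CPM in shYthdf2 (69.4 ± 9.90 against 154 ± 82.1, SD, n = 2), a 2.21-fold ratio of means that was 1.38-fold without shYthdf2 replicate 2. The 5 members held 52.0% of the family's reads. A sum over the family still leaves out reads that match several copies.

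The eIF1A genes outside the block did not pass the test. Eif1a was at 281 and 258 CPM in shScramble and at 306 and 302 CPM in shYthdf2, a log2 FC of 0.18 (SE 0.10, edgeR adjusted p = 0.37). Eif1ax was at 156 and 157 CPM in shScramble and at 156 and 152 CPM in shYthdf2, a log2 FC of -0.03 (SE 0.10, edgeR adjusted p = 0.92). The ratios of the group means were 1.13 and 0.98, although a p that misses the threshold does not show equal levels. Over 23 genes of translation initiation factors, including eIF1, eIF2, eIF3 and eIF5 subunits, the median log2 fold change was 0.06. Of these 1 passed as higher (Eif3l, a subunit of eIF3, log2 fold change 0.44, SE 0.10, edgeR adjusted p = 0.043) and 0 as lower. Among all genes tested 2.43% were called higher and 3.91% in either direction.

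The rows around the Eif1a-like copies were examined next. The 16 rows span 827 kb of chromosome 12, from 87494409 to 88321762, and 47 other rows lie inside that span. Only 6 of these 47 passed the filter on low counts, and these 6 had positive log2 fold changes from 0.13 in Gm21038 to 2.30 in Gm2046, with a median of 0.84. Gm2046, a predicted coding gene, was at 0.53 and 0.60 CPM in shScramble and 2.13 and 3.43 CPM in shYthdf2, and it rose with a log2 FC of 2.30 (SE 0.42, edgeR adjusted p = 0.021, from 9.8e-06 to 0.041 over 12 other settings). Among the other 5 was Gm8607, an unprocessed pseudogene whose transcript was 97.7% identical to that of BB287469 over 432 aligned bases. Gm8607 thus resembles the family, although it was counted among the 47 other rows and in their median.

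Within 500 kb on either side of the span lay 35 rows, of which 25 were tested. Their median log2 fold change was 0.09, 16 were positive and 9 negative, and 0 passed the adjusted threshold in either direction with edgeR (3 higher and 1 lower at an unadjusted p under 0.05). The most abundant were Ahsa1, an HSP90 co-chaperone, at 0.21 (SE 0.12, edgeR adjusted p = 0.36), Snw1, a splicing and transcription cofactor, at 0.22 (SE 0.12, edgeR adjusted p = 0.32), Sptlc2, a subunit of serine palmitoyltransferase, at -0.16 (SE 0.11, edgeR adjusted p = 0.47), and Tmed8 at 0.10 (SE 0.13, edgeR adjusted p = 0.73). The flanking rows with a log2 FC above 1 were Gm18983, just before the span, and Gm10264, Gm18632 and Gm8655, just after it, and these are named after their values were seen. Gm10264 is an unprocessed pseudogene of the same family, 95.5% identical to the transcript of BB287469 over 421 aligned bases, which the protein search could not find.

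**Figure D3:**
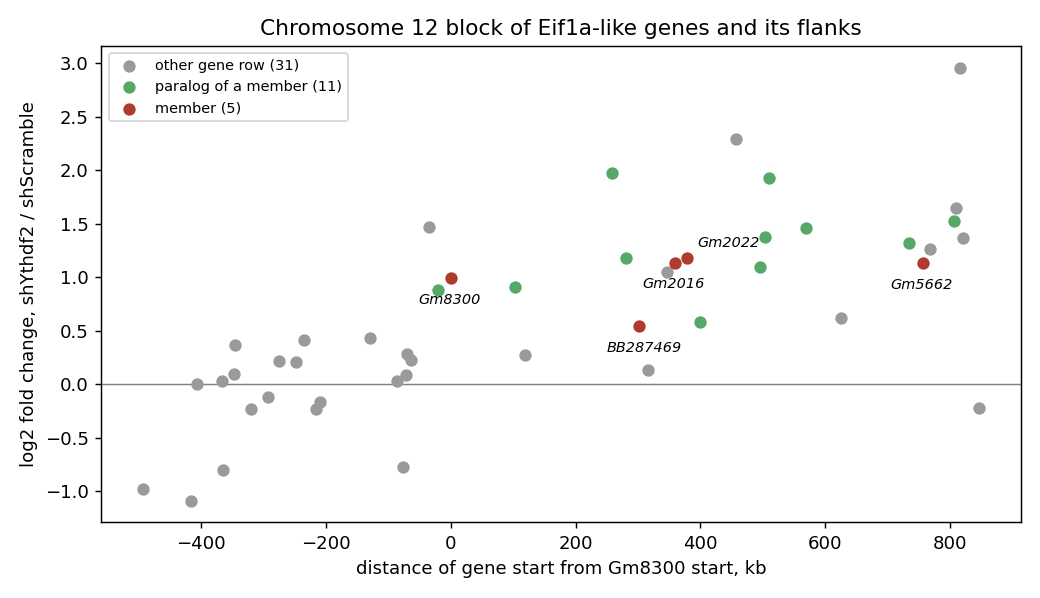
Log2 fold change of shYthdf2 over shScramble (y axis) for gene rows tested on chromosome 12, against the distance of the row's start from that of Gm8300 in kb (x axis), for the 5 members (red), the 11 paralogs (green) and 31 other rows (grey). The members and paralogs lie above 0 throughout, and most rows to the left of the block scatter about 0. Beside the block Gm18983 on the left is at 1.47, and Gm10264, Gm18632 and Gm8655 on the right are at 1.65, 2.96 and 1.37.

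Over all families, sequence search found 40 paralogs of the members, and 37 of them had a row. Of these 37, 31 had a read and 23 passed the filter on low counts, 2 were called higher (Gm8332 and Gm5039) and 0 lower, where 3.91% of all genes tested were called in either direction. Without adjustment, 9 were higher and 0 lower at a p under 0.05, beside 11.0% and 9.80% of all genes. The 23 had a median log2 fold change of 1.18. Without shYthdf2 replicate 2 the median was 0.43 over the paralogs that passed the filter in that fit, which need not be the same 23.

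In the family of Gm21761, 7 of 9 rows were tested, all had positive values, and 0 were called (edgeR, 3 higher at an unadjusted p under 0.05). Gm20767, its copy, was at 4.38 and 6.34 CPM in shScramble and 7.19 and 17.8 CPM in shYthdf2, a log2 FC of 1.22 (SE 0.38, edgeR adjusted p = 0.11). AF067061 had a log2 FC of 1.74 (SE 0.56, edgeR adjusted p = 0.11) and Tcstv3 one of 1.42 (SE 0.59, edgeR adjusted p = 0.21). Gm21818 was at 2.05 and 2.35 CPM in shScramble and 2.22 and 5.28 CPM in shYthdf2, a log2 FC of 0.77 (SE 0.41, edgeR adjusted p = 0.33). D13Ertd608e had one of 0.55 (SE 0.53, edgeR adjusted p = 0.60). The groups overlapped in Gm21818 and D13Ertd608e, and lay apart in only 3 of the 7 rows, Gm20767, AF067061 and Tcstv3. Among the relatives of Gm4340, 3 of 15 rows were tested and 0 called (edgeR, 1 higher at an unadjusted p under 0.05). Alyref, the single-copy gene, was at 154 and 122 CPM in shScramble and 156 and 143 CPM in shYthdf2, a log2 FC of 0.12 (SE 0.13, edgeR adjusted p = 0.64), and Alyref2 had one of 0.25 (SE 0.30, edgeR adjusted p = 0.69). Gm4302, a distant copy with 0 to 26 reads per library, had a log2 FC of 2.48 (SE 1.07, edgeR adjusted p = 0.22).

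Around the remaining members, 34 neighbours of Gm21761 within 500 kb that were no paralogs gave 12 tested rows with a median log2 fold change of -0.08. Of these, 1 passed. Gm52031, a pseudogene, was at 2.14 and 2.44 CPM in shScramble and 4.71 and 12.8 CPM in shYthdf2, and rose with a log2 FC of 1.94 (SE 0.42, edgeR adjusted p = 0.039, from 1.4e-09 to 0.085 over 12 other settings, and not called without shYthdf2 replicate 2). The abundant neighbours Hmgcs1, an enzyme of cholesterol synthesis, and Paip1, a partner of poly(A)-binding protein, had log2 fold changes of 0.05 (SE 0.11, edgeR adjusted p = 0.86) and -0.19 (SE 0.12, edgeR adjusted p = 0.42). Near Gm4971, 5 of 20 rows were tested and 0 called by edgeR (0 at an unadjusted p under 0.05), with Chd2, a chromatin remodeller, at 0.21 (SE 0.13, edgeR adjusted p = 0.39). Near Gm4340, 0 of 4 rows outside its family were tested, as none had a read.

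As a measure from another set of 2C genes, a list of Zscan4, Usp17l, Tdpoz, Tcstv and single-copy 2C genes had 18 of 21 rows tested. The median log2 fold change was 1.36, and 17 were positive. By edgeR 3 were called higher (Zscan4a, Usp17la and Usp17le) and 0 lower, where 2.43% of all genes tested were called higher. Tcstv3 was tested in this list and was also counted among the paralogs above. In this list shYthdf2 replicate 2 was also the highest library for 17 of 18 rows, with a median ratio to replicate 1 of 2.62. Over all genes tested that share was 21.8% and that ratio 0.997.

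**Figure D4:**
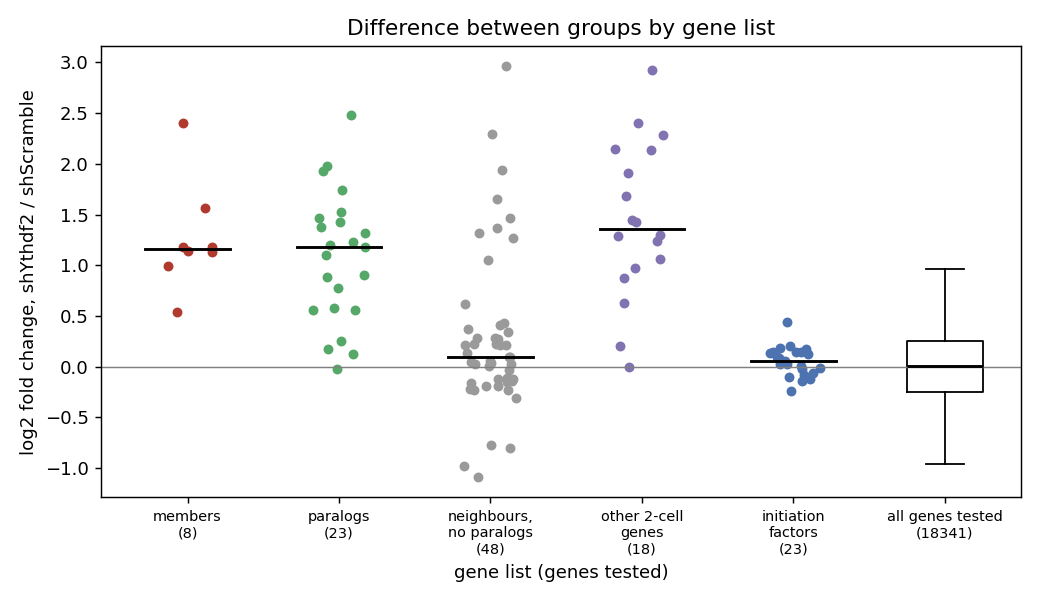
Log2 fold change of shYthdf2 over shScramble (y axis) for each gene tested in 5 lists, with a black bar at the median, beside a box for all genes tested (box from the lower to the upper quartile, whiskers from the 5th to the 95th percentile). The members and their paralogs have medians of 1.16 and 1.18, neighbours that are no paralogs 0.09, initiation factors 0.06 and all genes 0.0019.

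Genes with the pattern most like that of the members were sought among 14432 other genes with a mean of at least 1 CPM, by the mean absolute difference between log2(CPM + 0.5) profiles over the 4 libraries, each centred on its mean. Closest to the median profile of the members was Kdm4dl, listed as a pseudogene on chromosome 9, at a distance of 0.043, with 0.50 and 0.70 CPM in shScramble and 1.17 and 2.90 CPM in shYthdf2. Next were Gm2027, a transcribed pseudogene on chromosome 12 far from the block, at 0.064, and Eif4a3l1, an Eif4a3-like gene on chromosome 6, at 0.066. Sned1, which encodes an extracellular matrix protein, at 0.072 and the Eif1a-like Gm8332 at 0.074 completed the 5. Gm5662 lay at 0.018, Gm2016 at 0.022, Gm2022 at 0.027 and Gm4971 at 0.050 from that profile, whereas BB287469 lay at 0.37 and Gm4340 at 0.58. With 4 libraries these distances are a description only.

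**Figure D5:**
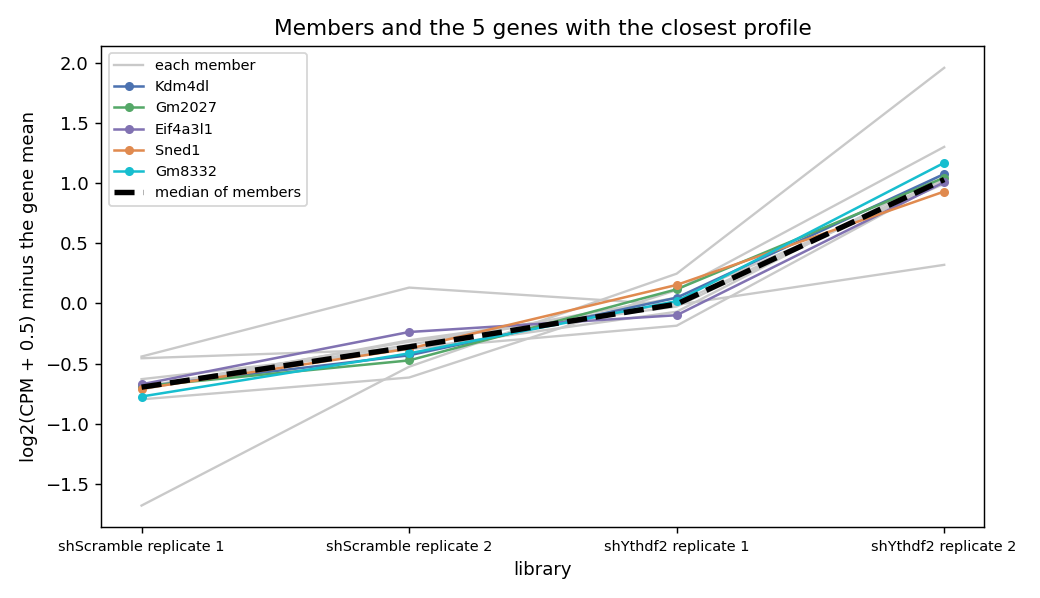
Centred profile, log2(CPM + 0.5) minus the gene's mean (y axis), over the 4 libraries (x axis) for each member (grey), the median of the members (dashed) and the 5 other genes closest to it (coloured); lines join the values of a gene. The 5 genes follow the median within 0.074 on average, and the member at the top right is Gm4340.

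The members' starts were compared where RefSeq's promoter windows on GRCm38 were given, which was so for 3 of 8, BB287469, Gm4340 and Gm21761. Both strands of the 300-base windows (250 bases before to 50 after the start) were searched for GATTNAATC, a core of the sequence DUX is known to bind, and for GATTNAAT, which overlaps it. These letters were chosen after the windows had been read. GATTNAATC was found once each in Gm4340 and Gm21761 and 0 times in BB287469, and in 0.281% of 27025 promoters. GATTNAAT was in all 3 and in 2.01% of promoters. TATAAA (14.2% of promoters) and TGCACAC, known as a ZSCAN4 motif (4.19%), were in none of the 3. The stretches below show the matches to either motif in capitals, at chr12:87816424-87816481 (+) in BB287469, chr10:104193871-104193929 (+) in Gm4340 and chr13:119913560-119913671 (-) in Gm21761.
BB287469: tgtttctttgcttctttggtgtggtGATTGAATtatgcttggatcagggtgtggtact
Gm4340: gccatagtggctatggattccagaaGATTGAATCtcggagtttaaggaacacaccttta
Gm21761: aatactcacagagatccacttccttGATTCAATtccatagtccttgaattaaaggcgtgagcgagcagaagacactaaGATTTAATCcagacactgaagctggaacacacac

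GATTNAATC began 146 bases before the start in Gm4340 and 125 in Gm21761. The GATTNAAT match of BB287469 began 128 bases before the start, and the other one of Gm21761 began 178 bases before it. They are a match of letters only, and the binding of a factor was not measured here. The transcripts were also searched for GGAC, a common core of the m6A consensus. Its density was between 2.30 per kb in Gm2022 and 5.56 per kb in Gm4340, against a median of 3.94 per kb over 21610 genes, and 5 of the 8 members (Gm2016, Gm5662, Gm8300, Gm4340 and Gm4971) lay above that median. Methylation itself was not measured in these libraries.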

How the data were processed

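RNA-seq of 2 shScramble and 2 shYthdf2 libraries of mouse ESCs was used, with groups and replicate numbers from the sample titles. The authors deposited raw counts of reads per gene, made per the file headers with featureCounts 2.0.3 over RefSeq exons on mm10, and the submitters' processing notes name fastp 0.19.4 and HISAT2 2.2.1. Both reads of a pair were counted, strand was not used, and reads with several placements were left out. From these, edgeR 4.0.16 (R 4.3.3) gave quasi-likelihood tests over 18341 genes (TMM, filterByExpr with a minimum count of 10, two-sided, Benjamini-Hochberg, threshold 0.05). The SE is the absolute log2 fold change over the square root of F. Alternatives were DESeq2 1.42.0, limma-voom 3.58.1, other scalings and filters, counts halved, a replicate block and leaving out each library. With 2 libraries against 2, the smallest exact two-sided permutation p is 0.333. A count of 0 allows up to 3 reads, which is 0.082 to 0.096 CPM by library totals and covers counting error only.

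Paralogs were genes with at least 50% protein identity over at least 80% of the shorter protein (BLAST 2.17.0, translated GENCODE M21 coding sequences, GRCm38). Neighbours lay within 500 kb. Named were all members, all called paralogs and neighbours, up to 4 more per locus by mean CPM, and the 5 genes of most alike profile. Members and lists were chosen with earlier results of these data known. The edgeR code was run on simulated counts of well-read genes with a fixed spread, which tests the code and not the calls made here. Per the study's methods the replicates were independent, and the deposited column of exon length was used for levels per kilobase.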

Additional observations from a re-analysis of the deposited data

How the results depend on the processing

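The log2 fold change of each member kept its sign under each of the 12 alternatives that gave a value (11 for BB287469), and the counts of calls moved most. Of all genes, 445 were called higher and 273 lower, against 368 and 253 with limma-voom, both over 18341 genes. The counts were 1095 and 843 with no filter beyond 1 read and 808 and 615 with DESeq2, each over 30565 genes. Of the members 2 were called, against 7 with no filter, 0 with limma-voom and 3 with DESeq2, which shared no gene with the 2. Of the paralogs 2 were called higher, against 0 with RLE factors, with library totals, with a mean of at least 1 CPM and with limma-voom, and 7 with no filter. Of the neighbours 4 were called higher, and these include the called paralogs Gm8332 and Gm5039. The count was 2 with RLE factors, with library totals and with a mean of at least 1 CPM, 1 with limma-voom and 12 with no filter. Of the neighbours 0 were called lower, against 1 with no filter and 1 with DESeq2. The cause was not tested.

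Leaving out each library in turn gave 534 to 1175 genes higher and 300 to 1113 lower, 2 to 7 members, 0 to 13 paralogs higher, 2 to 18 neighbours higher and 0 to 1 lower; the lowest counts for members, paralogs and neighbours came without shYthdf2 replicate 2, and where an arm kept 1 library it was assumed to vary like the other group. With the replicate number as a block, 1851 genes were higher and 1674 lower, with 7 members, 7 paralogs and 11 neighbours higher and 1 neighbour lower. The labels do not say that the numbers pair the libraries, and deviations of same-numbered libraries correlated at 0.29 across genes. BB287469, with 11 to 31 reads, was limited by depth, and copies with shared sequence by the reads left out.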
